A study of Mus musculus with 6 samples.

Results

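The adult globin genes and 2 of their red cell partners were followed in RNA-seq counts from CD8- dendritic cells of mouse spleen. The set was named by gene ID and holds 7 genes: the alpha globin genes Hba-a1 and Hba-a2, the beta globin genes Hbb-bs, Hbb-bt and Hbb-b1, and the partners Ahsp and Bpgm. Of the 27179 genes in the count table, 5 of these 7 had a row, Hbb-bt and Ahsp are not analysed here, and 4 passed the filter on low counts that 11602 genes passed. The genes were chosen with their difference between CpG-pretreated and untreated mice known, so that difference is described here without a test: they were selected on their counts in the comparison of the 2 groups itself.

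The libraries came from 2 groups of C57BL/6 mice. CpG-pretreated mice gave 3 libraries and untreated mice gave 3, and both groups carry the numbers 2, 3 and 4. CpG oligonucleotides act through Toll-like receptor 9, and by the series title these cells were paralysed by a systemic inflammatory syndrome. The cells were sorted by flow cytometry from enriched spleen preparations and were lysed with no culture step, and polyadenylated RNA was sequenced. The sequence, dose, route and timing of the CpG, the age of the mice and any pooling of mice are not stated in the labels.

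Haemoglobin is the oxygen carrier of red blood cells, built from alpha and beta globin chains that each hold a haem group. Its genes are switched on in erythroid precursors by GATA1, KLF1 and TAL1, and their RNA makes up much of the messenger RNA of a late precursor or a reticulocyte. Ahsp encodes a chaperone of free alpha globin. Bpgm encodes bisphosphoglycerate mutase, which makes the 2,3-bisphosphoglycerate that loosens the hold of haemoglobin on oxygen. Mouse spleen makes red cells as well as clearing them.

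All 4 genes that passed the filter were higher in the CpG-pretreated libraries. The 3 haemoglobin genes with counts averaged 13.8 to 15.6 times their untreated level, and Bpgm averaged 4.12 times its untreated level. The CpG-pretreated libraries were far from alike: numbers 2 and 3 had about the same levels, and number 4 lay well below both.

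The sequences of the gene copies come first, because they bear on which row a read can be assigned to. Hba-a1 (Entrez 15122) lies on chromosome 11 at 32283672 to 32284486 of GRCm38, and Hba-a2 (Entrez 110257) at 32296492 to 32297310 of the same chromosome and strand. Hbb-bs (Entrez 100503605) lies on chromosome 7 at 103826523 to 103827928 and Hbb-bt (Entrez 101488143) at 103812524 to 103813923, both on the minus strand. Each of these 4 genes has 3 exons in its GENCODE transcript. Bpgm (Entrez 12183) spans 34476356 to 34505136 on chromosome 6. For Hbb-b1 (Entrez 15129) no position is given, since the one RefSeq lists does not fall in the beta globin cluster of the reference. In C57BL/6 mice the adult beta globin genes are Hbb-bs and Hbb-bt, and Hbb-b1 is a gene name of the haplotype that other strains carry. To which copy the counts of the Hbb-b1 row belong was not tested.

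The 2 alpha globin genes have coding sequences of 429 bases that differ at 1 base, C381T, where the first letter is the base of Hba-a1 and the last that of Hba-a2, counted from the A of the start codon. The difference is at the last position of its codon. The stretch around it, coding bases 359 to 403, is shown for both copies with that base in capitals.
Hba-a1: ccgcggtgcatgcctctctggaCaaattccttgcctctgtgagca
Hba-a2: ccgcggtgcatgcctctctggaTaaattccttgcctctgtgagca

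The beta globin genes Hbb-bs and Hbb-bt have coding sequences of 444 bases and likewise differ at 1 base, C417T, with the base of Hbb-bs first. It is also at a last codon position, and coding bases 395 to 439 are shown with it in capitals.
Hbb-bs: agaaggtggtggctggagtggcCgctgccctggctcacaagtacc
Hbb-bt: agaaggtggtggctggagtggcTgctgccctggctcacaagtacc

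Identical stretches therefore cover much of these transcripts. Of the 455 windows of 100 bases in the Hba-a2 transcript, 339, or 74.5%, occur unchanged in that of Hba-a1. Of the 529 windows of 100 bases in the Hbb-bs transcript, 331, or 62.6%, occur unchanged in that of Hbb-bt. The labels do not say how reads that match both copies were counted, so the split of counts between copies is uncertain and the summed haemoglobin counts are the firmer measure.

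The windows around the start sites of 3 of the genes, 250 bases before the start and 50 after it, are printed from RefSeq on GRCm38.p6 because the 3 genes were high in the same libraries. Capitals mark 4 motifs wherever they stand on the printed strand or, read backwards as the complement, on the opposite one. The first is CACCC, the core of KLF1 sites, and the second is the CCAAT box. The others are GATAA, a core of GATA factor sites, and its variant with a last base of G, written GATAG.
Hba-a2, chr11:32296242-32296541, plus strand: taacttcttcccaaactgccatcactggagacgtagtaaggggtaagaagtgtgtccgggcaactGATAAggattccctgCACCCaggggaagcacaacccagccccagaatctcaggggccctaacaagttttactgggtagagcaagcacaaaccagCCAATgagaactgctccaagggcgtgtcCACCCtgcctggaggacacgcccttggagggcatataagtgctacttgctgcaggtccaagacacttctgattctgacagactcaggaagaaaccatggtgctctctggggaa
Hbb-bs, chr7:103827879-103828178, minus strand: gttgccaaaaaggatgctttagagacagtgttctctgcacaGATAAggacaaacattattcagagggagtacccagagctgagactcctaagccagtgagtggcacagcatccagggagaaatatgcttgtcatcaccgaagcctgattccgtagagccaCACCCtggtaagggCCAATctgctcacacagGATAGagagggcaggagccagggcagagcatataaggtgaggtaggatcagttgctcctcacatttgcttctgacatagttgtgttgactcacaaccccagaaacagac
Bpgm, chr6:34476106-34476405, plus strand: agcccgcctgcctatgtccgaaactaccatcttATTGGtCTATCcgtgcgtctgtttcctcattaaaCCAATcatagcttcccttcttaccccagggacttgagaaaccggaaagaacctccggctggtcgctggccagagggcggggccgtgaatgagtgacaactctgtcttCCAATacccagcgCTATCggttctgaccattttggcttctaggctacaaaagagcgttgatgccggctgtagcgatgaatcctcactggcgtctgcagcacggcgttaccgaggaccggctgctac

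The Hba-a2 window holds GATAA at position -185 from the start site, CACCC at -170 and -63 and CCAAT at -91. The Hbb-bs window holds GATAA at -209, CACCC at -90, CCAAT at -76 and GATAG at -59. In the Bpgm window CCAAT occurs 3 times, from -217 to -76, and GATAG occurs on the other strand at -211 and -63, with neither CACCC nor GATAA. These letters are common: of 32851 mouse promoter windows of the same 300 bases, 57.5% hold CACCC, 37.4% CCAAT, 25.4% GATAA and 23.5% GATAG. The windows of Hba-a1 and Hba-a2 were identical at 98.0% of aligned positions, and those of Hbb-bs and Hbb-bt at 70.6%. Against the Hba-a2 window, identity was 46.9% for Hbb-bs and 45.5% for Bpgm.

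Among the alpha globin genes, all counts were in 1 row. Hba-a1 was listed at 0 counts in all 6 libraries, where 3 counts, the limit a count of 0 allows, correspond to 0.365 to 0.382 CPM, that is, counts scaled to the library total. Because most of the Hba-a2 transcript matches that of Hba-a1, the 0 does not show that Hba-a1 was silent. Hba-a2 had 1343, 1177 and 324 counts in CpG-pretreated libraries 2, 3 and 4, against 43, 114 and 38 in untreated libraries 2, 3 and 4. Scaled by normalized library sizes, these were 165, 149 and 40.8 CPM in CpG-pretreated and 5.28, 14.3 and 4.67 CPM in untreated libraries. The groups did not overlap, and the lowest CpG-pretreated library was 2.86 times the highest untreated one. Hba-a2 averaged 118 ± 67.5 CPM in CpG-pretreated and 8.07 ± 5.36 CPM in untreated libraries (SD, n = 3 each), a fitted log2 fold change of 3.87.

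Of the beta globin genes, Hbb-bs had 2146, 2079 and 523 counts in CpG-pretreated libraries 2, 3 and 4, against 64, 187 and 55 in untreated ones. In CPM, Hbb-bs was at 263, 264 and 65.9 in CpG-pretreated and at 7.86, 23.4 and 6.76 in untreated libraries. CpG-pretreated libraries 2 and 3 were again close to each other and number 4 was low, while untreated library 3 stood above the other two. The means were 198 ± 114 CPM in CpG-pretreated and 12.7 ± 9.29 CPM in untreated libraries (SD, n = 3 each), a log2 fold change of 3.96.

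The Hbb-b1 row had 2466, 1943 and 565 counts in CpG-pretreated libraries 2, 3 and 4, against 76, 221 and 64 in untreated ones. Its CPM were 302, 246 and 71.2 in CpG-pretreated and 9.34, 27.6 and 7.87 in untreated libraries. The order of the libraries differed from that of Hbb-bs at the top only, where CpG-pretreated library 2 exceeded number 3. Hbb-b1 averaged 207 ± 121 CPM in CpG-pretreated and 14.9 ± 11.0 CPM in untreated libraries (SD, n = 3 each), a log2 fold change of 3.79.

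Bpgm had 942, 927 and 358 counts in CpG-pretreated libraries 2, 3 and 4, against 170, 209 and 167 in untreated ones. Its CPM were 116, 118 and 45.1 in CpG-pretreated and 20.9, 26.1 and 20.5 in untreated libraries. The same libraries were high and low as for the globin genes, on a smaller scale, and the groups did not overlap. Bpgm averaged 92.7 ± 41.3 CPM in CpG-pretreated and 22.5 ± 3.13 CPM in untreated libraries (SD, n = 3 each), a log2 fold change of 2.04. The untreated libraries differed little for Bpgm, with a highest value 1.27 times the lowest, while for the 3 globin rows that ratio was 3.05 to 3.51. In the CpG-pretreated libraries the ratio was 2.61 for Bpgm and 4.00 to 4.25 for the globin rows.

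**Figure D1:**
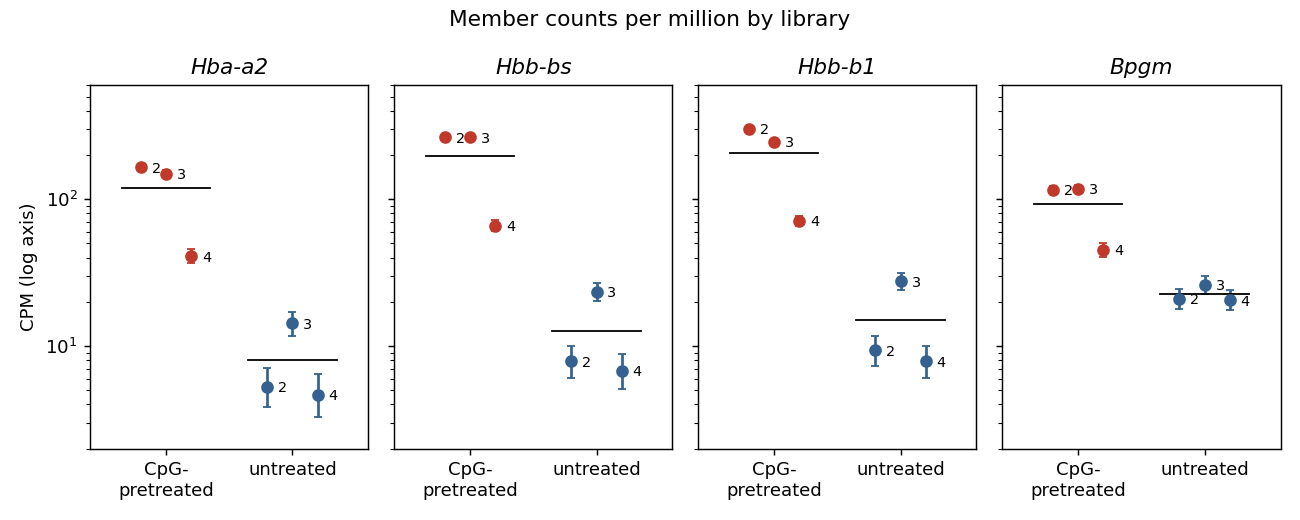
CPM on a log axis for Hba-a2, Hbb-bs, Hbb-b1 and Bpgm in the 3 CpG-pretreated (red, left) and 3 untreated (blue, right) libraries. Points are libraries with their number, bars through them are 95% Poisson counting intervals, and horizontal lines are group means. In every panel the CpG-pretreated library 4 is the lowest red point and lies above all blue points, and untreated library 3 is the highest blue point.

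In all 4 genes every CpG-pretreated library lay above every untreated one, a pattern shown by 9.2% of the 11602 genes tested, with 18.7% not overlapping in either direction. The size of the difference depended on which libraries were set against each other. Between libraries of the same number, Hba-a2 differed 31.2-fold for number 2, 10.5-fold for number 3 and 8.74-fold for number 4. Hbb-bs gave 33.5, 11.3 and 9.74-fold for the same numbers, and Hbb-b1 gave 32.4, 8.92 and 9.05-fold. For Bpgm the folds were 5.53, 4.50 and 2.20. The largest globin folds thus came from number 2, and those of numbers 3 and 4 were close, since number 3 was the highest untreated library and number 4 the lowest CpG-pretreated one. Without untreated library 3 the fitted log2 fold changes were 4.56 for Hba-a2, 4.75 for Hbb-bs and 4.58 for Hbb-b1.

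Summed over the 3 globin rows, haemoglobin had 5955, 5199 and 1412 counts in CpG-pretreated libraries 2, 3 and 4, against 183, 522 and 157 in untreated ones. This was 730, 659 and 178 CPM in CpG-pretreated and 22.5, 65.3 and 19.3 CPM in untreated libraries. The means were 523 ± 301 CPM in CpG-pretreated and 35.7 ± 25.7 CPM in untreated libraries (SD, n = 3 each), a ratio of 14.6. The ratio of means on the log2 scale was 3.87, or 4.64 without untreated library 3. Even at its highest, haemoglobin took 0.0736% of the counts of a CpG-pretreated library and 0.00649% of those of an untreated one. In such bulk samples, more cells of a type and more RNA per cell cannot be told apart.

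Divided by gene length, the levels can be compared between genes. In CpG-pretreated library 2, Hbb-b1 was at 483, Hbb-bs at 412, Hba-a2 at 293 and Bpgm at 55.9 CPM per kb. In untreated library 2, Hbb-b1 was at 14.9, Hbb-bs at 12.3, Bpgm at 10.1 and Hba-a2 at 9.39 CPM per kb. The globin rows thus stood far above Bpgm in the first and near it in the second. By this measure Hbb-b1 ranked 80th from the top of 15008 genes with a count in CpG-pretreated library 2, 94th of 14959 in number 3 and 524th of 14680 in number 4. In untreated libraries 2, 3 and 4 it ranked 5067th of 14902, 1833rd of 14998 and 5734th of 14750. Hba-a2 was the lowest globin row per length in every library, and the order of Hbb-bs and Hbb-b1 changed only in CpG-pretreated library 3, where Hbb-bs was at 413 and Hbb-b1 at 394 CPM per kb.

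The makeup of the haemoglobin counts was read from 2 shares, which follow from the same counts by which the genes were chosen and are given without a test. The alpha share, Hba-a2 counts of all haemoglobin counts, was 22.6%, 22.6% and 22.9% in CpG-pretreated libraries 2, 3 and 4 and 23.5%, 21.8% and 24.2% in untreated ones. The groups overlapped, and averaged 22.7 ± 0.207% in CpG-pretreated and 23.2 ± 1.21% in untreated libraries (SD, n = 3 each). The difference was -0.468 percentage points. The exact binomial 95% intervals, which cover counting error only, were 21.5% to 23.6% in CpG-pretreated library 2 and 17.6% to 30.3% in untreated library 2, so a small difference in share was not detectable with so few untreated counts.

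The Hbb-b1 share of the beta globin counts was 53.5%, 48.3% and 51.9% in CpG-pretreated libraries 2, 3 and 4 and 54.3%, 54.2% and 53.8% in untreated ones. Every CpG-pretreated library was below every untreated one, with means of 51.2 ± 2.65% in CpG-pretreated and 54.1 ± 0.264% in untreated libraries (SD, n = 3 each). The difference was -2.84 percentage points, or -1.38 without CpG-pretreated library 3. The exact binomial intervals were 52.0% to 54.9% in CpG-pretreated library 2 and 46.8% to 49.9% in CpG-pretreated library 3, so the share varied within that group beyond counting error. The interval of untreated library 2, 45.7% to 62.7%, overlapped both. While the haemoglobin level differed between same-numbered libraries by 32.5-fold, 10.1-fold and 9.21-fold for numbers 2, 3 and 4, the mean shares differed by less than 3 percentage points.

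**Figure D2:**
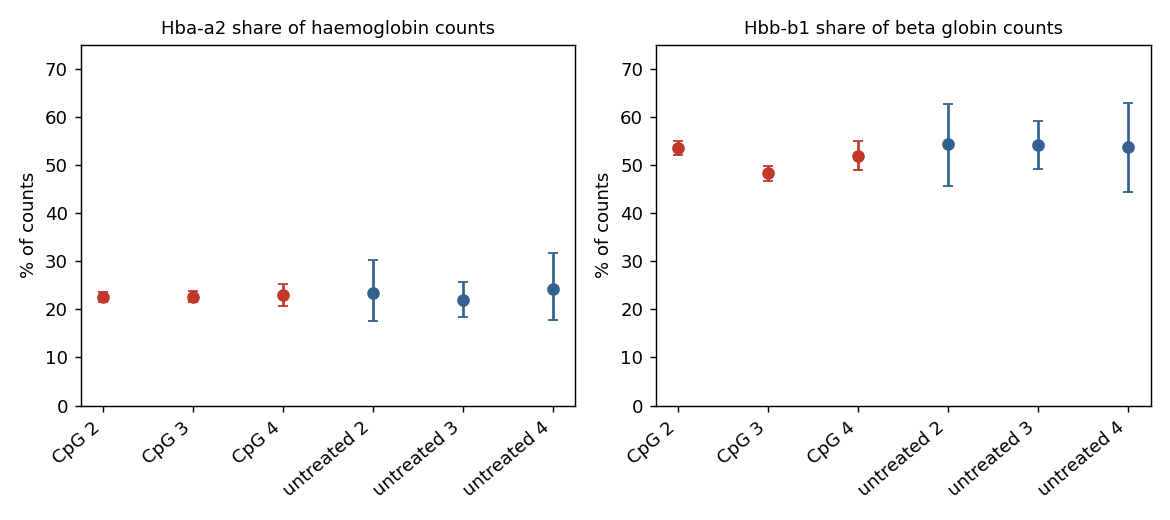
Makeup of the haemoglobin counts in the 3 CpG-pretreated libraries (red, left) and 3 untreated libraries (blue, right), as points with 95% exact binomial intervals. The alpha share lies between 21.8% and 24.2% in all 6 libraries, and the Hbb-b1 share of beta globin counts between 48.3% and 54.3%.

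Bpgm did not keep a fixed ratio to haemoglobin. For each Bpgm count there were 6.32, 5.61 and 3.94 haemoglobin counts in CpG-pretreated libraries 2, 3 and 4, against 1.08, 2.50 and 0.940 in untreated ones. The untreated library with the most haemoglobin, number 3, also had the highest ratio of that group. On the log2 scale the ratio of Bpgm to haemoglobin averaged -2.38 ± 0.35 in CpG-pretreated and -0.45 ± 0.76 in untreated libraries (SD, n = 3 each). This follows from the fold changes by which the genes were chosen and was not tested.

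Other members of the globin family were mostly without counts. The embryonic genes Hba-x, Hbb-y, Hbb-bh1 and Hbb-bh2, the theta-like Hbq1a, the muscle gene Mb and the neuronal gene Ngb had 0 counts in all 6 libraries. Hbq1b, a theta-like gene beside Hba-a1, had 5, 7 and 1 counts in CpG-pretreated libraries 2, 3 and 4 and 0 counts in each untreated library. Cygb, the widely expressed cytoglobin, went the other way. It had 50, 58 and 45 counts in CpG-pretreated libraries 2, 3 and 4, against 140, 118 and 99 in untreated ones. Cygb fell, with 6.39 ± 0.872 CPM in CpG-pretreated and 14.7 ± 2.52 CPM in untreated libraries (SD, n = 3 each) and a log2 fold change of -1.20 with a standard error (SE) of 0.19 (edgeR with Benjamini-Hochberg adjustment, adjusted p = 0.0402). That call was lost without CpG-pretreated library 2 or 3 or any of the untreated libraries, with adjusted p-values of up to 0.163.

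The other genes of the red cell pathways were read from 10 lists, which hold 110 genes with a row beside the genes described above, and 88 of them were tested. Of these 88, 3 were called higher in CpG-pretreated cells, Alas2, Epb42 and Trim10, and 2 lower, Cygb and Vcam1. Over all 11602 genes tested, 0.974% were called, 0.474% as higher and 0.5% as lower. Of the 11602, 1485 had an unadjusted p under 0.05 in edgeR, and 48.9% had a log2 fold change above 0. DESeq2 called 256 of the 11602 higher and 170 lower. With the library number as a block, 22 of the 88 list genes were called higher and 7 lower, beside 8.52% of all genes called and 4.73% called higher. The block called 439 of the 11602 lower. Without CpG-pretreated library 2 or 3 no gene of the whole table was called by edgeR, where 1065 and 1107 had an unadjusted p under 0.05. The numbers of list genes called higher were 34 without CpG-pretreated library 4 and 0 without any other library. List genes called lower numbered 0 without CpG-pretreated library 2 or 3 or untreated library 3 or 4, and 1 without untreated library 2.

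The list of globin gene control held 12 regulators, of which 9 were tested and none was called by edgeR (4 had an unadjusted p under 0.05, and DESeq2 and the block each called 2 higher), with a median log2 fold change of 0.10 beside -0.01 over all genes. Gata1, the erythroid GATA factor, had 44, 46 and 9 counts in CpG-pretreated libraries 2, 3 and 4 and 6, 8 and 3 in untreated ones. Klf1, the activator of adult beta globin, had 62, 59 and 7 counts in CpG-pretreated and 4, 4 and 3 in untreated libraries, and both genes fell short of the filter. These counts had the same high and low CpG-pretreated libraries as haemoglobin. Tal1, a partner of GATA1, averaged 7.43 ± 4.92 CPM in CpG-pretreated and 1.03 ± 0.513 CPM in untreated libraries (SD, n = 3 each). Its edgeR adjusted p was 0.0900, or 0.00046 with the block. Tal1 had 92, 72 and 15 counts in CpG-pretreated and 6, 13 and 6 in untreated libraries. It thus passed the filter on low counts mainly through the CpG-pretreated group, and without that filter its adjusted p was 0.181. Regulators with higher levels hardly differed: the log2 fold change was 0.03 for Lmo2, a bridging protein of the same complex, -0.10 for Bcl11a, a repressor of fetal globin in humans, -0.06 for Zbtb7a, another such repressor, and 0.10 for Eif2ak1, the haem-regulated kinase that slows globin translation.

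Of the 9 genes of haem synthesis, 1 was called higher, none lower, and 4 were called higher with the block, with a median log2 fold change of 0.58. In edgeR 6 of the 9 had an unadjusted p under 0.05, and DESeq2 called 3 higher. Alas2, the erythroid form of the first enzyme, had 298, 268 and 59.9 CPM in libraries 2, 3 and 4 of the CpG-pretreated group and 4.67, 23.8 and 5.90 CPM in those of the untreated group. This is the same order of libraries as for haemoglobin, apart from the close untreated numbers 2 and 4. Its log2 fold change was 4.19 with an SE of 0.75 (edgeR adjusted p = 0.0485), and the call was lost with the block, at an adjusted p of 0.135, and without the filter on low counts, at 0.255. Of 13 alternative fits (other scalings, filters, DESeq2, the block and single libraries left out), only 3 called Alas2. Alas1, the form that other cells use, had a log2 fold change of -0.06, and Ppox, the last step but one, of -0.02. Fech, which inserts the iron, averaged 74.0 ± 29.1 CPM in CpG-pretreated and 29.7 ± 3.69 CPM in untreated libraries (SD, n = 3 each). Its adjusted p was 0.0778 in edgeR and 0.00019 in DESeq2.

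Among genes of bisphosphoglycerate handling and red cell glycolysis, 11 were tested beside Bpgm and none was called by edgeR, or 2 as higher with the block (3 had an unadjusted p under 0.05, and DESeq2 called 1 higher), with a median log2 fold change of 0.17. Pkm, a pyruvate kinase, had a log2 fold change of 0.14, Gpi1, glucose-6-phosphate isomerase, of 0.20, and Aldoa, an aldolase, of -0.06. Hk1, the hexokinase of red cells, was at 130 ± 13.9 CPM in CpG-pretreated and 96.3 ± 6.76 CPM in untreated libraries (SD, n = 3 each), with an adjusted p of 0.123, or 0.0044 with the block. Minpp1, a phosphatase that also acts on 2,3-bisphosphoglycerate, had a log2 fold change of 0.44 and an adjusted p of 0.109, or 0.0211 with the block. The rows of Gapdh and Pgam1, usually abundant glycolytic genes, held few reads: Gapdh had 118, 95 and 76 counts in CpG-pretreated and 92, 65 and 69 in untreated libraries. Pgam1 had 16, 20 and 24 counts in CpG-pretreated and 23, 11 and 20 in untreated libraries. Gapdh has many processed copies in the mouse genome.

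Of 12 genes of red cell redox defence none was called by edgeR (4 had an unadjusted p under 0.05, and DESeq2 called 2 higher), with a median log2 fold change of 0.12, and with the block 2 were called higher and 1 lower. Gpx1, a glutathione peroxidase, had a log2 fold change of 0.09, Cat, catalase, of 0.10, and Cyb5r3, which reduces methaemoglobin by way of cytochrome b5, of -0.12. Blvrb, a flavin and biliverdin reductase abundant in red cells, averaged 21.1 ± 8.37 CPM in CpG-pretreated and 7.74 ± 1.46 CPM in untreated libraries (SD, n = 3 each). Its adjusted p was 0.0778 in edgeR and 0.00052 in DESeq2.

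The genes that clear haemoglobin and haem lay mostly the other way. Of 11 tested, 10 had log2 fold changes that were not above 0, with a median of -0.39, and 1 was called lower. Over all genes tested, 48.9% were above 0. In edgeR 5 of the 11 had an unadjusted p under 0.05, and DESeq2 called 3 lower. Vcam1, an adhesion molecule of red pulp macrophages, fell, with 15.8 ± 3.62 CPM in CpG-pretreated and 42.7 ± 12.6 CPM in untreated libraries (SD, n = 3 each), a log2 fold change of -1.43 with an SE of 0.25 (edgeR adjusted p = 0.0444). Of 13 alternative fits, 9 called Vcam1. With the block 4 of the 11 were called lower, among them Slc40a1, the iron exporter ferroportin, with 11.6 ± 4.40 CPM in CpG-pretreated and 31.9 ± 12.5 CPM in untreated libraries (SD, n = 3 each, adjusted p = 0.105 without the block). Hmox1, haem oxygenase, had a log2 fold change of -0.98 and an adjusted p of 0.130, and Cd163, the receptor for haemoglobin bound to haptoglobin, of -0.76. The more abundant members differed less. Their log2 fold changes were -0.29 for Fth1, the ferritin heavy chain, and -0.12 for Ftl1, the light chain. Lrp1, a receptor for haem bound to haemopexin, had -0.39, and Slc48a1, a haem transporter, had 0.00. Fth1 was called lower with the block, at an edgeR adjusted p of 0.0282, against 0.551 without it.

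Genes of the red cell membrane were nearest to the globins in size of difference. Of 14 genes 11 were tested, the median log2 fold change was 3.80, and 1 was called higher, or 7 with the block. In edgeR 10 of the 11 had an unadjusted p under 0.05, and DESeq2 called 6 higher. Epb42, protein 4.2 of the membrane skeleton, rose, with 14.4 ± 8.91 CPM in CpG-pretreated and 0.910 ± 0.511 CPM in untreated libraries (SD, n = 3 each), a log2 fold change of 3.97 with an SE of 0.66 (edgeR adjusted p = 0.0434). It had 171, 142 and 34 counts in CpG-pretreated and 5, 12 and 5 in untreated libraries, so it passed the filter on low counts through the group where it is high, and without that filter the call was lost, at an adjusted p of 0.101. Of 13 alternative fits, 7 called Epb42. Slc4a1, the anion exchanger band 3, had a log2 fold change of 3.94 with an edgeR adjusted p of 0.0831, or 0.199 with the block, and 0.0185 in DESeq2. Gypc, a membrane protein gene that many cells express, had -0.04.

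Of 14 late erythroid genes 11 were tested, with a median log2 fold change of 0.38, and 1 was called higher, or 3 higher and 1 lower with the block. In edgeR 7 of the 11 had an unadjusted p under 0.05, and DESeq2 called 3 higher. Trim10, an erythroid ubiquitin ligase, rose, with 25.3 ± 15.1 CPM in CpG-pretreated and 1.20 ± 1.02 CPM in untreated libraries (SD, n = 3 each), a log2 fold change of 4.38 with an SE of 0.68 (edgeR adjusted p = 0.0398). Its counts were 301, 242 and 65 in CpG-pretreated and 4, 19 and 6 in untreated libraries, so it too passed the filter through the CpG-pretreated group, and its adjusted p without the filter was 0.131. Of 13 alternative fits, 7 called Trim10. Mkrn1, a more broadly expressed ubiquitin ligase, had -0.04, and Slc25a37, the mitochondrial iron importer mitoferrin, had 0.27. Of 12 early erythroid genes 8 were tested and none was called by edgeR, or 3 as higher with the block (3 had an unadjusted p under 0.05, and DESeq2 called 2 higher), with a median log2 fold change of 0.81. Kit, the stem cell factor receptor, was at 599.7 ± 87.7 CPM in CpG-pretreated and 567 ± 57.1 CPM in untreated libraries (SD, n = 3 each), with a log2 fold change of 0.08, and Tfrc, the transferrin receptor, had -0.15. Car2, a carbonic anhydrase, had 2.40 with an adjusted p of 0.0697.

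**Figure D3:**
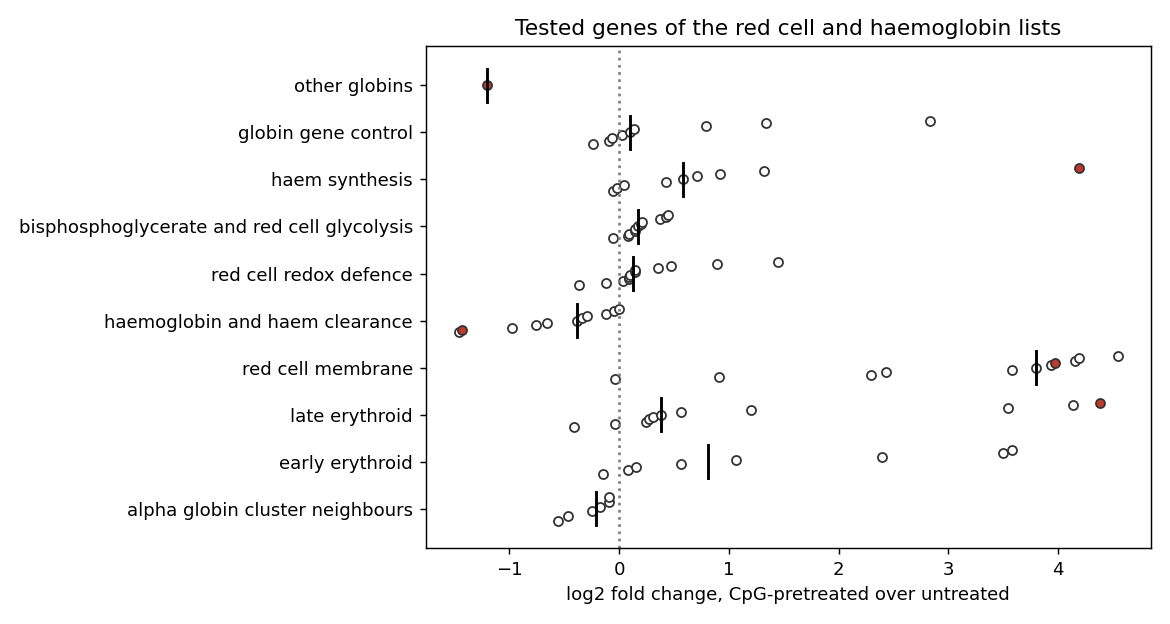
Log2 fold change (horizontal axis, CpG-pretreated over untreated) of the tested genes in each of 10 lists. Each circle is a gene, filled red where it was called in the fit without the block. The short black line is the list's median, and the dotted line is the median of all genes tested, -0.01. The red cell membrane list has the highest median of the lists, 3.80, and the clearance and neighbour lists lie mostly below 0.

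Genes whose levels followed haemoglobin most closely were sought among 10565 tested genes, by the Pearson correlation of log2 CPM over the 6 libraries, which share the same cells, sort and depth range. Among the closest were Alas2 (0.997), Trim10 (0.996), Epb42 (0.995), Fads2 (0.994), Cdr2 (0.994), Fanca (0.994) and Synj2 (0.994). Alas2, Trim10 and Epb42 are on the lists of red cell genes. Cdr2, which is on none, had 24.0, 24.2 and 9.32 CPM in libraries 2, 3 and 4 of the CpG-pretreated group and 2.58, 4.63 and 2.95 CPM in those of the untreated group. Over so few libraries in 2 separated groups, a difference between the groups can by itself give a strong value of either sign, such as 0.879 for Blvrb and -0.834 for Vcam1.

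With the group means taken out, the genes among the closest were Gria3 (0.996), Zfp956 (0.996), Rhd (0.996), Plk4 (0.993), Snora28 (0.990), Mks1 (0.988) and Atp2b4 (0.988). On this measure Bpgm stood at 0.898, and Hba-a2, Hbb-bs and Hbb-b1 at 0.998 to 0.999 with the sum they belong to. Rhd, the Rh blood group gene, is a red cell membrane gene. With the group means removed, few free values remain, and the best of so many genes are then high whatever they measure. Over all 6 libraries Zfp956 and Mks1 gave -0.017 and -0.468.

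**Figure D4:**
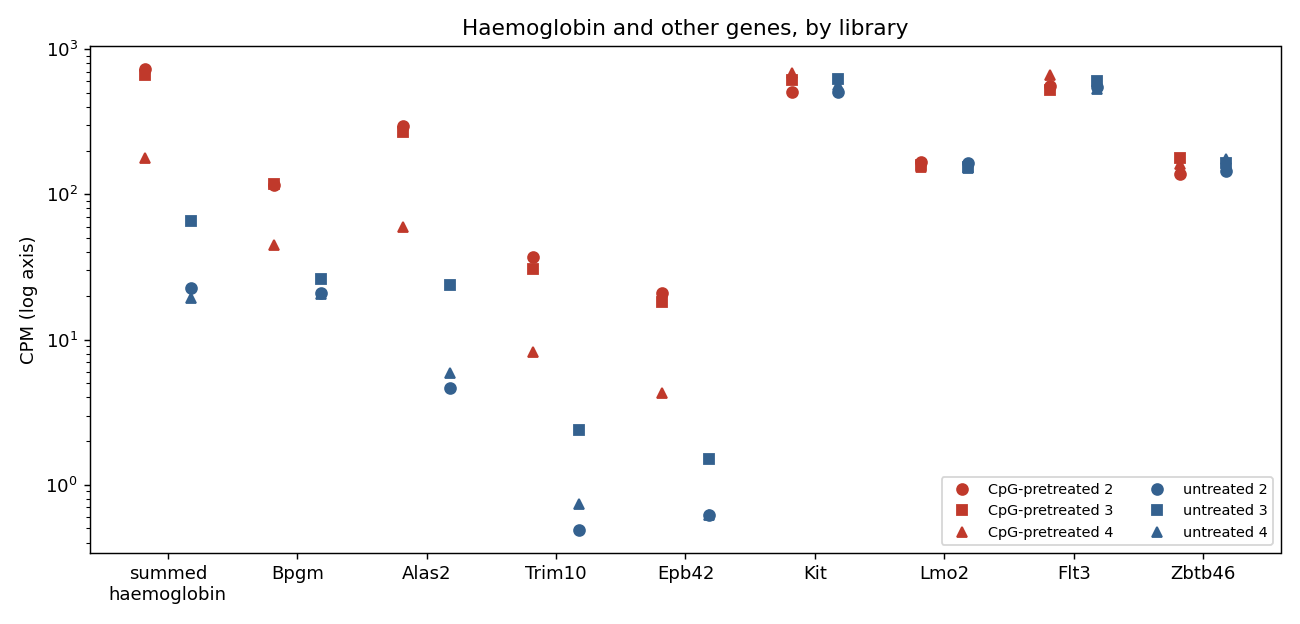
CPM on a log axis for the summed haemoglobin rows, Bpgm, 3 red cell genes, Kit, Lmo2 and the dendritic cell genes Flt3 and Zbtb46, with each library as a point, CpG-pretreated in red on the left and untreated in blue on the right of each gene. The red cell genes repeat the pattern of low CpG-pretreated library 4 and high untreated library 3, while Kit, Lmo2, Flt3 and Zbtb46 overlap between the groups.

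Of the genes around the globin genes, Hbq1b lies 2478 bases from Hba-a1, and its counts of 5, 7 and 1 in CpG-pretreated libraries and 0 in each untreated one are given above. Within 200 kb of the alpha globin genes, 11 genes had a row and 7 were tested. The list of 6 neighbours had log2 fold changes below 0 throughout, with a median of -0.21. None was called by edgeR, with or without the block, or by DESeq2, and 0 had an unadjusted p under 0.05. Nprl3, whose introns hold enhancers of the alpha globin genes, had -0.17, and Mpg, a DNA glycosylase gene next to it, had -0.09. Around the beta globin genes, 23 of the 24 genes with a row had no count in any library, so they show nothing in either direction. Beside Bpgm, Akr1b10 and Akr1b3, aldo-keto reductase genes, had log2 fold changes of -0.03 and -0.17.

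The label of the cells was read against marker genes, since globin genes are known as genes of red cell precursors. Of 10 dendritic cell markers all were tested and none was called by edgeR or DESeq2 (1 had an unadjusted p under 0.05). Their summed level was 30508 to 35695 CPM in CpG-pretreated and 33438 to 39308 CPM in untreated libraries. Most of that sum was Cd74 and H2-Ab1, at 22987 and 7971 of 35529 CPM in CpG-pretreated library 2. The sum thus says little of the other dendritic cell markers. Cd8a had 36, 37 and 13 counts in CpG-pretreated and 17, 33 and 10 in untreated libraries. All 10 red pulp macrophage markers, genes of cells that take up red cells, had log2 fold changes below 0. Spic, Vcam1, Cd163 and Hmox1 are also on the list of haemoglobin and haem clearance, so this is not a separate result for these genes. Over all genes tested, 48.9% were above 0. Of the other markers tested, 1 of 10 for dendritic cells, 0 of 5 for B cells and 6 of 6 for neutrophils were above 0. For platelets and megakaryocytes this held for 2 of 3, and for T and NK cells for 1 of 2. Among the red pulp macrophage markers C1qa, C1qc and Vcam1 were called lower, or 7 of the 10 with the block, which called 439 of all 11602 genes lower. In edgeR 8 of the 10 had an unadjusted p under 0.05, and DESeq2 called 6 lower. The 10 summed to 344 to 455 CPM in CpG-pretreated and 485 to 617 CPM in untreated libraries. Most of the sum was Adgre1, with 263 of 344 CPM in CpG-pretreated library 2 and 328 of 485 CPM in untreated library 2. Adgre1 had a log2 fold change of -0.22 (edgeR adjusted p = 0.559). Neutrophil markers summed to 53.9 to 104 CPM in CpG-pretreated and 3.44 to 76.3 CPM in untreated libraries, with none of 6 tested called by edgeR or DESeq2 (1 had an unadjusted p under 0.05), or 1 as higher with the block. Platelet and megakaryocyte markers summed to 35.4 to 64.1 CPM in CpG-pretreated and 39.0 to 57.3 CPM in untreated libraries, with 4 of 10 under 3 counts in every library and most of the sum from Itgb3, an integrin gene (33.8 of 39.0 CPM in untreated library 2). None of the 3 tested was called by edgeR or DESeq2 (1 had an unadjusted p under 0.05), or 1 as lower with the block. Summed levels were 46.3 to 64.7 CPM in CpG-pretreated and 56.5 to 72.6 CPM in untreated libraries for B cell markers, of which 5 were tested and none was called by edgeR (2 had an unadjusted p under 0.05), while DESeq2 and the block each called 1 lower. The list of T and NK cell markers says little of those cells, since nearly all of its sum was Cd4, which CD8- dendritic cells also express: Cd4 was at 279, 287 and 444 CPM in CpG-pretreated and at 476, 467 and 492 CPM in untreated libraries, with an adjusted p of 0.251, or 0.0215 with the block. Cd3e, Cd3d, Cd3g, Trac, Ncr1 and Klrb1c had at most 11 counts in any library. Summed red cell membrane genes gave 745, 755 and 286 CPM in libraries 2, 3 and 4 of the CpG-pretreated group and 170, 257 and 215 CPM in those of the untreated group. In untreated library 2, 100.4 and 58.5 of the 170 CPM were Epb41 and Gypc, which many cells express, so the sum understates the difference of the other members. The part of these cell types in the haemoglobin difference, and that of cells or free RNA carried through the sort, was not tested.

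Total counts lay between 7989245 and 8111975 in CpG-pretreated and between 7855500 and 8228140 in untreated libraries, so depth did not follow the haemoglobin level. One count corresponded to 0.122 to 0.127 CPM. No pair of libraries of a group agreed within sampling noise, and the 6 were used as separate replicates.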

How the data were processed

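Sorted CD8- splenic dendritic cells of C57BL/6 mice were profiled by RNA-seq in 3 CpG-pretreated and 3 untreated libraries. The authors deposited raw read counts by Entrez gene ID, and each sample's counts equalled its column of the series table. CASAVA, featureCounts and mm10 are named, per the submitters' processing notes. No source used here gives the aligner, versions, strand setting or treatment of reads matching several genes.

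Symbols were matched to RefSeq on GRCm38.p6 by gene ID (25275 of 27179). Counts were tested in R 4.3.3 with edgeR 4.0.16: filterByExpr (minimum count 10, minimum total 15), TMM normalization, robust quasi-likelihood F test, two-sided, Benjamini-Hochberg adjustment over 11602 genes, with a call at an adjusted p under 0.05. CPM values use TMM-normalized library sizes. Total counts were 7855500 to 8228140 per library. Binomial intervals are exact (scipy 1.17.1). The labels do not say whether mice were pooled, so p-values reflect the spread among these libraries alone. Intervals and the 3-count limit cover counting error only.

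Coding sequences came from GENCODE M21 and promoter windows from RefSeq. The edgeR fit without the block was checked on simulated counts, with the same dispersion for every gene and changes in well-counted genes only. That check does not cover the block, DESeq2, genes with few counts or a spread between libraries like that of the globin rows. The members and lists were chosen with earlier results of these data known. From each list the called genes and at most 4 more, those of highest mean CPM, are named by rule, with those of the 8 genes most like haemoglobin on each measure that are reported and neighbours within 200 kb. Gata1, Klf1, Tal1, Blvrb, Minpp1, Gapdh, Pgam1, Slc40a1, Hmox1 and Cd163 fall outside that rule and were chosen after their values were seen. One gene the rule names is not reported here. Bpgm's ratio to haemoglobin and the alpha share, planned as tests, are given without one because they follow from the counts that chose the genes, and 2 planned shares, of Hba-a1 among alpha and Hbb-bt among beta counts, gave no value.

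Same-numbered libraries deviated together from their group means, with correlations across genes of 0.479 for number 2, 0.25 for number 3 and 0.311 for number 4, against -0.394 to 0.0662 for unlike numbers. Deviations cancel within groups, so these values are not independent. A pairing of the libraries by number thus rests on the data alone, and the main fit leaves it out. The fit with the number as a block is given where it changes a call or a count by over 1.5 times. Alternatives were other scalings, filters, DESeq2 1.42.0, the block and leaving out each library.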

Additional observations from a re-analysis of the deposited data

How the results depend on the processing

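The fitted log2 fold changes of the 4 genes kept their direction under all 14 alternatives: 3.56 to 4.56 for Hba-a2, 3.67 to 4.75 for Hbb-bs, 3.41 to 4.58 for Hbb-b1 and 1.85 to 2.37 for Bpgm. The log2 ratio of summed haemoglobin was 3.55 to 4.87, the highest from medians in place of means. The number of genes called over the whole table, 113, was 189 without a filter on low counts, 426 with DESeq2 and 988 with the replicate block. Leaving out 1 library gave 0 to 386 calls: 0 without CpG-pretreated library 2 or 3 (edgeR, with 1065 and 1107 genes at an unadjusted p under 0.05), 386 without CpG-pretreated library 4, and 34, 2 and 1 without untreated library 2, 3 and 4.

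List genes called higher, 3, were 0 without the filter (adjusted over 17129 genes), 19 with DESeq2 and 22 with the block, and 0 to 34 when 1 library was left out. Those called lower, 2, were 4 with DESeq2, 7 with the block and 0 to 2 when 1 library was left out. The cause was not tested.

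The difference in alpha share lay between -1.14 and 0.044 percentage points when 1 library was left out, turning round without untreated library 4, and the cause was not tested. The pairing by number left it at -0.468, and the difference in Hbb-b1 share, a measure added after the data were seen, at -2.84. The Hbb-b1 difference was -3.96 to -1.38 with 1 library left out. The log2 ratio of Bpgm to haemoglobin differed by -2.37 to -1.66. The few untreated haemoglobin counts, 157 to 522 a library, limit the precision of the untreated shares.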
